A study of Mus musculus with 11 samples.

Results

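The comparison described here is that of colonic epithelium from miR-181 knockout and wild-type (WT) mice that received no treatment. It rests on 5 of the 11 libraries of a bulk RNA sequencing series, chosen by the genotype and treatment in their labels: 3 baseline libraries of double-knockout (DKO) mice, in which the miR-181a1-b1 cluster and also the miR-181a2-b2 cluster were deleted, and 2 baseline libraries of WT mice. The other 6 libraries came from WT and DKO mice (n = 3 each) given 2% dextran sulphate sodium (DSS), a polysaccharide that injures the colonic lining, for 7 days with 2 days of recovery. In all 11, epithelial cells of the colon were freed of lymphocytes in Percoll, a density medium, and polyadenylated RNA was captured on oligo(dT) beads. The labels give no strain, age or sex, and nothing in them shows whether WT and DKO mice were littermates. Strain background, if it differed by genotype, and the deletion therefore cannot be told apart in any result below. The libraries are called biological replicates, with no word on whether each came from 1 mouse, so each p-value reflects only how much the samples vary within their groups. Unless stated otherwise, that spread was estimated from all 11 libraries, those after DSS included.

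MicroRNAs are short RNAs that, loaded into an Argonaute protein, pair through their seed with sites in the 3' untranslated regions (UTRs) of messenger RNAs and lower the stability or translation of those messages. The miR-181 family is transcribed from several clusters, is studied most in lymphocyte development and inflammation, and shares 1 seed among its members. Loss of a microRNA is commonly looked for as a rise of messages that hold its sites.

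The 4 mature 5' strands of the family are shown because they share the seed that defines the target sites searched below. Sequences are from RefSeq (GRCm38.p6), 5' to 3', and capitals mark the seed, bases 2 to 8.
mmu-miR-181a-5p: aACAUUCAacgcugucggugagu
mmu-miR-181b-5p: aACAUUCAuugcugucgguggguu
mmu-miR-181c-5p: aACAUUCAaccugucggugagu
mmu-miR-181d-5p: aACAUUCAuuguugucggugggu
The first 2 are encoded in the deleted clusters, on the plus strand of chromosome 1 (mmu-miR-181a-5p from 137966468 to 137966490) and of chromosome 2 (the same mature RNA from 38852741 to 38852763). The other 2 come from a cluster on chromosome 8 that the labels do not list as deleted.

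The baseline libraries held 41631951 to 51659993 counts each and were alike over most genes. Values below are CPM, the counts of a gene per 1000000 counts, after TMM scaling, a correction for library composition. DKO libraries 1 and 2 carried much 18S ribosomal RNA, with 23.05% and 8.46% of their counts on Rn18s-rs5 against 0.128% to 1.59% in the other 9 libraries. WT library 1 had a count in 30479 genes, against 24726 to 26352 in the other baseline libraries. Pairs of libraries differed by a root mean square of 0.386 on the log2 scale within WT, 0.337 to 0.420 within DKO and 0.344 to 0.458 between genotypes, so the between-genotype range overlapped both within-genotype values. Some results that may rest on DKO libraries 1 and 2 or on WT library 1 are given with and without them below, and others only with all 5 libraries. Epithelial markers were high in all 5 libraries: the adhesion molecule Epcam lay between 1204 and 1758 CPM, and the adherens junction protein Cdh1 between 1267 and 1600.

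Few genes passed the test between DKO and WT epithelium before treatment. Of 54513 genes in the table, 19267 passed a filter on low counts, and 5 of these (0.026%) passed edgeR's quasi-likelihood test at a Benjamini-Hochberg adjusted p under 0.05. Nnt and Wdfy1 rose in DKO, 2 genes or 0.0104%, and Tmem254, Duxbl1 and Sprr2a2 fell, 3 genes or 0.0156%. The median log2 fold change, DKO relative to WT, over all genes tested was 0.01. An unadjusted p under 0.05 was reached by 751 genes (3.9%), 359 higher (1.86%) and 392 lower (2.03%). The 3 DKO libraries lay wholly above the 2 WT libraries for 1911 genes (9.92%) and wholly below for 1975 (10.3%), together 3886 genes (20.2%), which is the background for every count of such genes below.

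Tmem254, an uncharacterised transmembrane protein, changed with the lowest p. It was at 133 and 154 CPM in the WT libraries and at 36.6, 37.5 and 45.3 CPM in the DKO libraries. The groups were far apart, with the highest DKO library below every WT library. The log2 fold change was -1.85 ± 0.13 (SE; 95% confidence interval -2.12 to -1.57; edgeR adjusted p = 8.9e-05). Without DKO libraries 1 and 2, whose ribosomal RNA was high, it was -1.66 with edgeR adjusted p = 0.0474.

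Duxbl1, a homeobox gene of the double homeobox class, is expressed at a low level here. WT libraries held 2.42 and 2.89 CPM, and DKO libraries 0.433, 0.291 and 0.350 CPM. The ranges did not overlap, and the log2 fold change was -2.90 ± 0.31 (SE; edgeR adjusted p = 0.0053). Without DKO libraries 1 and 2 the fold change was -2.92 and the call was lost (edgeR adjusted p = 0.322). It was also lost without WT library 1 (0.0599), WT library 2 (0.0808), DKO library 2 (0.0699) or DKO library 3 (0.0582).

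**Figure D1:**
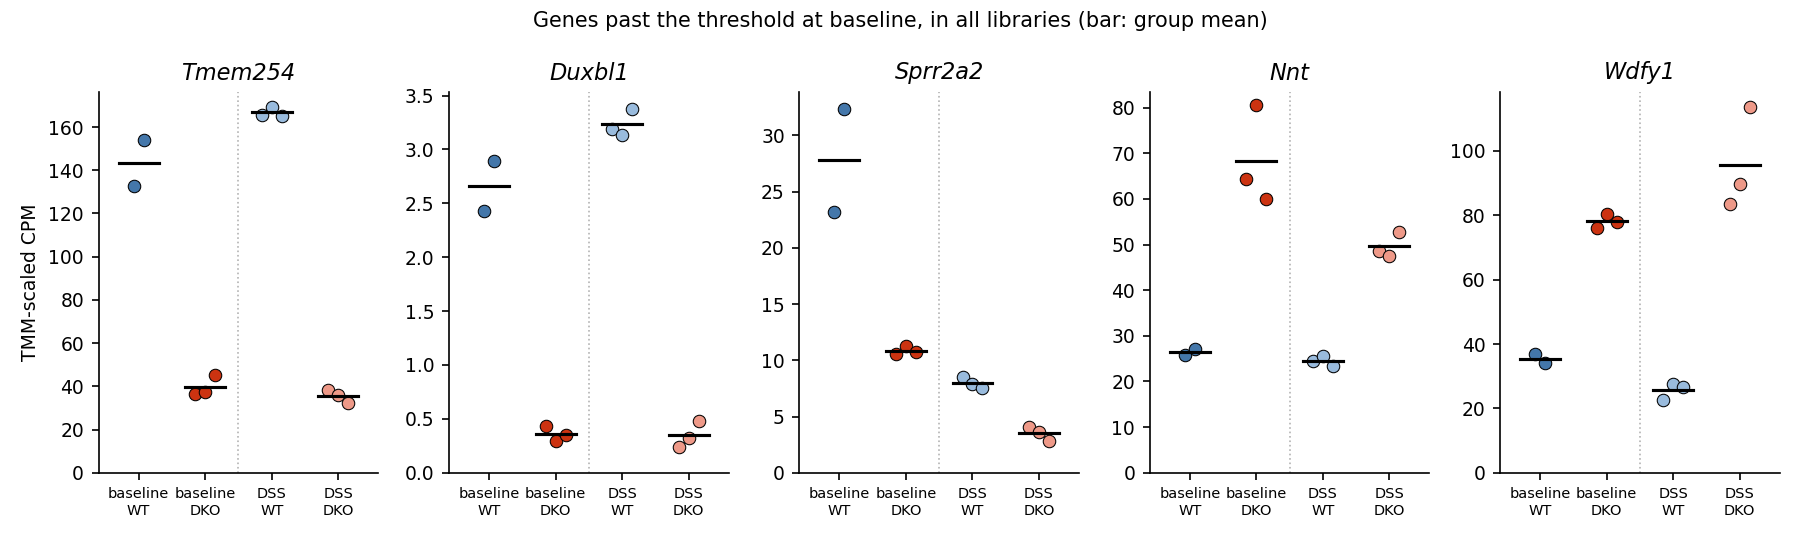
Each panel plots 1 of the 5 genes that passed the test at baseline, as TMM-scaled CPM in each library (points) with the mean of the group (bar), for WT (n = 2) and DKO (n = 3) at baseline and for both genotypes after DSS (n = 3 each). For each gene the DKO points lie wholly on 1 side of the WT points, both at baseline and after DSS; Sprr2a2 is lower after DSS in both genotypes.

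Tmem254 and Duxbl1 lie in the same stretch of chromosome 14 (mm10). GENCODE M21 has 3 models of the Tmem254 family between 25923300 and 26207041, and Duxbl1 lies from 25978577 to 25990088. This stretch holds several near-identical gene copies, with 3 models each of the Duxbl and Cphx families and 2 of Plac9, while the count table has 1 entry for each of the 4 names. How reads were split among copies is not given in the sources used here, so the entries may stand for more than 1 gene. Within 500 kb of Tmem254, 4 of 17 other tested genes had an unadjusted p under 0.05, all of them lower in DKO, where 2.03% of all genes were: Duxbl1, Plac9, Cphx1 and the unnamed model Gm19013.

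Cphx1, a homeobox gene, was at 3.54 and 2.55 CPM in WT and at 0.248, 0.678 and 0.583 CPM in DKO. The groups did not overlap, but at a log2 fold change of -2.57 ± 0.48 (SE) it did not pass after adjustment over all genes (unadjusted p = 0.000163 by edgeR). Plac9, which encodes a small secreted protein, was at 5.19 and 5.55 CPM in WT and 0.743, 1.36 and 2.58 CPM in DKO, with a log2 fold change of -1.76 ± 0.48 (SE; edgeR adjusted p = 1). Gm19013 was a trace transcript with a log2 fold change of -3.51 ± 0.83 (SE). Genes on both sides had values near 0: Anxa11, a calcium-binding annexin, had a log2 fold change of 0.12, the mitochondrial cyclophilin Ppif 0.21, the transcriptional coregulator Zmiz1 0.09 and the membrane protein Slmap -0.11, with the lowest unadjusted p of the 4 at 0.204.

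**Figure D2:**
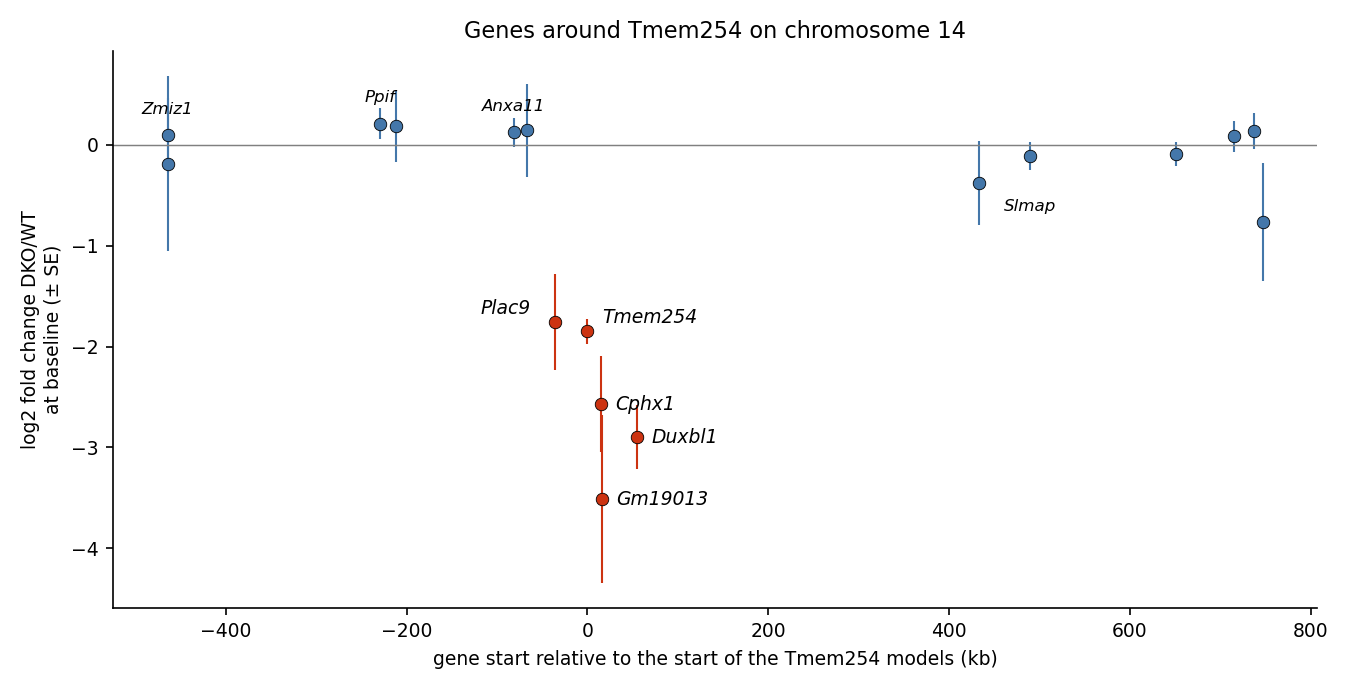
Log2 fold change of DKO relative to WT at baseline (± SE) against the start of each gene relative to the start of the Tmem254 models, in kb, for named and unnamed tested genes around them. The 5 red points, Plac9, Tmem254, Cphx1, Gm19013 and Duxbl1, lie between -3.51 and -1.76, and the flanking genes (blue) lie near 0 or have wide errors.

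Nnt encodes the mitochondrial nicotinamide nucleotide transhydrogenase, an inner-membrane proton-driven enzyme that regenerates NADPH. It was at 25.9 and 27.1 CPM in the WT libraries and at 64.3, 80.6 and 60.0 CPM in the DKO libraries. Every DKO library was above both WT libraries. The log2 fold change was 1.37 ± 0.14 (SE; 95% confidence interval 1.06 to 1.68; edgeR adjusted p = 0.0053). Without DKO libraries 1 and 2 it was 1.18 and the call was lost (edgeR adjusted p = 0.216), as it was without WT library 1 (0.131) or WT library 2 (0.0808).

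Nnt lies on chromosome 13 from 119335448 to 119408997 (mm10). Of 12 tested genes within 500 kb of it, 3 had an unadjusted p under 0.05, where 3.9% of all genes did: Gm9752 (log2 fold change -1.10), Tmem267 (0.74) and Gm48265 (0.94), with signs in both directions, and none of them passed after adjustment. Nnt was the only called member of 20 tested mitochondrial NADPH and antioxidant enzymes, whose median log2 fold change was 0.17 against 0.01 for all genes. Other mitochondrial sources of NADPH did not pass the test. Isocitrate dehydrogenase Idh2 was at 0.23 ± 0.15 (log2 fold change and SE), glutamate dehydrogenase Glud1 0.09 ± 0.11 and malic enzyme Me3 -0.02 ± 0.47, the last with a wide error. Glutathione reductase Gsr, which uses NADPH, had 0.27 ± 0.13 and did not pass either.

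Wdfy1 encodes an endosomal FYVE-domain protein reported to act as an adaptor in TLR3 and TLR4 signalling through TRIF. WT libraries had 36.8 and 34.2 CPM and DKO libraries 76.1, 80.3 and 77.8 CPM. The 3 DKO values were tightly grouped, with the lowest above both WT values. The log2 fold change was 1.14 ± 0.15 (SE; edgeR adjusted p = 0.0263), and it was also 1.13 without DKO libraries 1 and 2, where the call was lost (edgeR adjusted p = 0.322). Leaving out any 1 baseline library also ended the call, with edgeR adjusted p from 0.105 to 0.376, as did upper-quartile scaling (0.095).

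No other listed member of the family or pathway of Wdfy1 passed. Wdfy2 and Wdfy3 had log2 fold changes of -0.29 each and Wdfy4 -0.55. Among 18 tested genes of TLR3, TLR4 and TRIF signalling, 1 was called, Wdfy1 itself, and the median was 0.00. The receptors Tlr3 (0.11) and Tlr4 (0.12) and Ticam1, which encodes TRIF (0.02), were near 0 on the log2 scale. Wdfy1 lies on chromosome 1 from 79702262 to 79776143, and 0 of its 8 tested neighbours within 500 kb had an unadjusted p under 0.05.

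Nnt and Wdfy1 are both on a list of 9 genes reported to differ between C57BL/6 substrains, among them the Nnt deletion carried by C57BL/6J mice. Of these 9, 6 were tested, 2 were called and the other 4 did not pass: the insulin-degrading enzyme Ide (log2 fold change 0.18), Fgfbp3 (-0.19), Cyfip2 (-0.37) and Nlrp12, which was at trace level (-2.36 ± 1.40, SE). Entpd4, Entpd4b and Crb1 were under the filter on low counts. The list was chosen with the calls of Nnt and Wdfy1 known, so its count is no independent evidence.

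Sprr2a2 encodes a small proline-rich protein of the cornified envelope family, members of which are made in the gut under microbial and type 2 stimuli. It was at 23.2 and 32.4 CPM in WT and 10.5, 11.2 and 10.7 CPM in DKO. The DKO libraries lay close together below both WT libraries. The log2 fold change was -1.36 ± 0.19 (SE; edgeR adjusted p = 0.042). Every fit that left out 1 baseline library ended the call, with edgeR adjusted p from 0.0963 to 0.714, and without DKO libraries 1 and 2 it was 0.382 at a log2 fold change of -1.37.

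The Sprr2a genes are near-identical tandem copies on chromosome 3, and the model of Sprr2a2 (92215920 to 92256724) overlaps that of Sprr2a1, so the counts of Sprr2a2 are uncertain. The more abundant copy Sprr2a3 was at 289 and 301 CPM in WT and 298, 320 and 427 CPM in DKO, groups that overlapped (log2 fold change 0.24 ± 0.23, SE). The fold change of Sprr2a1 was -0.16 ± 0.26 on the log2 scale. Of 13 tested cornified envelope and Sprr genes, 1 was called and the median was -0.14.

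The same genotype contrast in the DSS libraries, which the baseline contrast does not use, gave calls for all 5 genes in the same direction; 2165 of all tested genes (11.2%) were called there. Both contrasts come from 1 fit and share its estimate of the spread. After DSS, Tmem254 was at 166, 169 and 165 CPM in WT and 38.1, 35.8 and 32.4 CPM in DKO (log2 fold change -2.23; edgeR adjusted p = 2.51e-06). Duxbl1 had 3.19, 3.13 and 3.38 CPM in WT and 0.241, 0.324 and 0.476 CPM in DKO (-3.22; edgeR adjusted p = 0.000243). Levels of both genes in each genotype were thus close to those at baseline.

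Nnt after DSS was at 24.5, 25.6 and 23.3 CPM in WT and 48.7, 47.6 and 52.8 CPM in DKO (log2 fold change 1.02; edgeR adjusted p = 0.000803). For Wdfy1 the WT libraries had 22.7, 27.5 and 26.7 CPM and the DKO libraries 83.4, 89.7 and 114 CPM (1.90; edgeR adjusted p = 3.74e-05). Sprr2a2 was lower in both genotypes than at baseline, at 8.54, 7.89 and 7.52 CPM in WT and 4.05, 3.63 and 2.86 CPM in DKO (-1.18; edgeR adjusted p = 0.00234), so that DSS WT lay below baseline DKO. None of the 5 passed the test of the difference between the 2 contrasts (the interaction of genotype and DSS), which 302 of all genes (1.57%) passed. The nearest was Wdfy1, with an interaction adjusted p of 0.0646 by edgeR. Sex-linked genes had a male pattern in each baseline library (Ddx3y, a Y-linked helicase, 42.6 to 54.9 CPM) and a female pattern in each DSS library (0.162 to 0.895 CPM). Within each genotype contrast the pattern was the same, and DSS and sex cannot be told apart in the interaction. Of 5 sex-linked genes, 4 were nevertheless called lower in DKO after DSS, among them Ddx3y at its trace level there (log2 fold change -2.05, edgeR adjusted p = 0.000594).

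The 10 genes with the lowest p in each direction that did not pass adjustment, taken among named genes with at least 1 on the log2 CPM scale and groups that did not overlap, split in the DSS libraries. Of the 10 higher genes, 2 were called after DSS in the same direction and 1 in the opposite one, and of the 10 lower genes 1 and 2. Tmem181b-ps, a pseudogene, was at 23.1 and 18.4 CPM in WT and 42.7, 48.8 and 47.5 CPM in DKO (log2 fold change 1.16 ± 0.18, SE; edgeR adjusted p = 0.0895), and its fold change after DSS was 1.41 (edgeR adjusted p = 0.000635). Its neighbour Dynlt1b, a dynein light chain of the Tctex type 2.23 kb away on chromosome 17, was at 8.49 and 8.74 CPM in WT and 26.6, 18.4 and 39.6 CPM in DKO (1.71 ± 0.33, SE; edgeR adjusted p = 0.561; after DSS 1.80, adjusted p = 0.00397). These groups did not overlap at baseline. Both genes have near-identical copies in the same stretch, which limits how far the counts can be assigned. At baseline the copies had smaller values: Dynlt1a had a log2 fold change of -0.10, Dynlt1c 0.15, Dynlt1f 0.03, Tmem181a -0.04 and Tmem181c-ps 0.02. After DSS, however, Tmem181c-ps (1.44; edgeR adjusted p = 0.00153) and Tmem181a (0.54; adjusted p = 0.0131) were called as well, and Dynlt1a had 0.62, Dynlt1c 0.50 and Dynlt1f 0.03 without passing.

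The sign of the fold change after DSS was that at baseline for 6 of the 10 higher and 4 of the 10 lower genes. Xlr3a, an X-linked lymphocyte-regulated gene, was at 0.95 and 0.893 CPM in WT and 2.97, 3.05 and 5.20 CPM in DKO (log2 fold change 2.02 ± 0.33, SE; edgeR adjusted p = 0.125), and its fold change was -0.65 after DSS. Slc34a2, a sodium-phosphate cotransporter, was at 11.5 and 11.3 CPM in WT and 19.8, 21.7 and 21.3 CPM in DKO (0.88 ± 0.22, SE; edgeR adjusted p = 1) and had -1.45 after DSS (edgeR adjusted p = 0.00153). The DKO values of both genes were above WT in every baseline library. Muc3a, a membrane-bound mucin of the brush border, was at 223 and 269 CPM in WT and 148, 204 and 151 CPM in DKO (-0.55 ± 0.15, SE; edgeR adjusted p = 1) and had 0.71 after DSS (edgeR adjusted p = 0.00926). Itih5, a secreted protein that binds hyaluronan, was at 379 and 246 CPM in WT and 189, 193 and 144 CPM in DKO (-0.83 ± 0.21, SE) and had -0.65 after DSS (edgeR adjusted p = 0.0508). The interaction passed for 2 of the 10 higher and 4 of the 10 lower genes, but it uses the baseline contrast by which they were chosen and so gives no independent test.

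**Figure D3:**
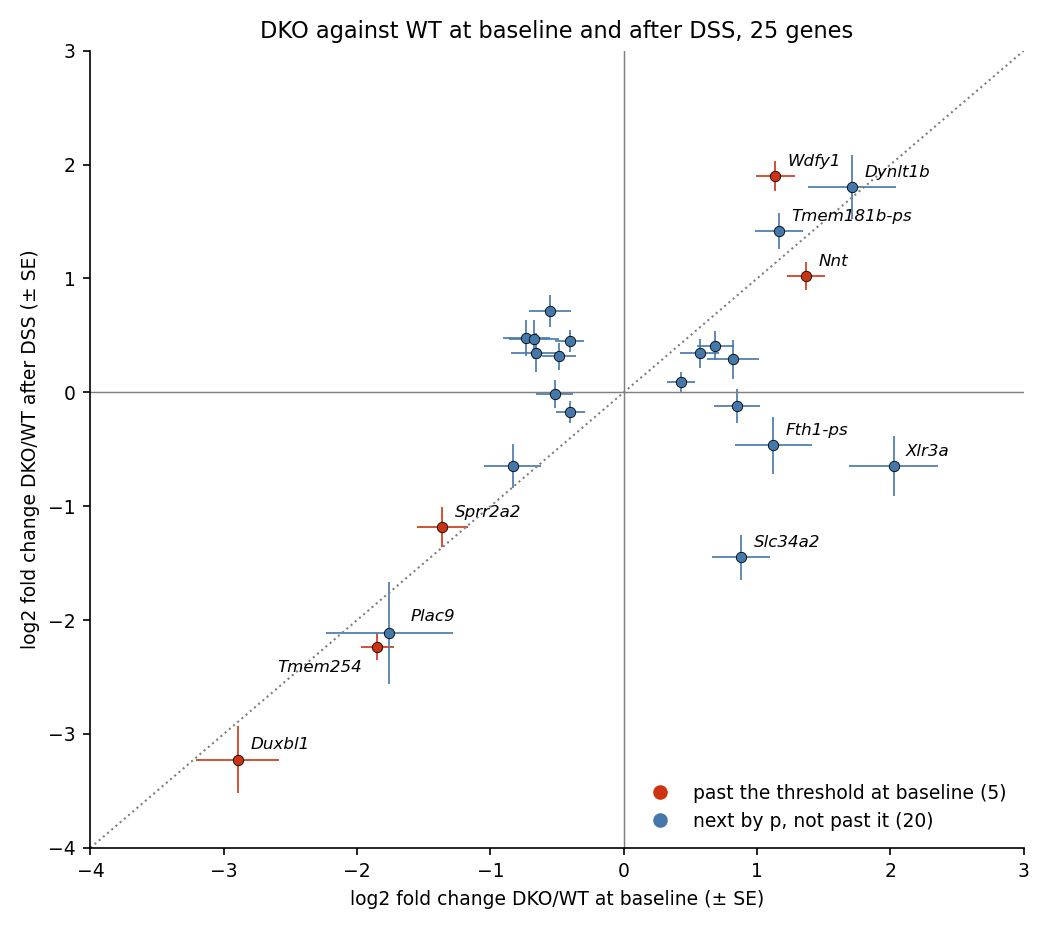
Log2 fold change of DKO relative to WT after DSS against that at baseline (± SE on both axes) for the 5 genes that passed at baseline (red) and the 20 next by p (blue), with a dotted line of equality. Each red point lies on the same side of 0 on both axes, with Wdfy1 above the line at 1.14 and 1.90. The blue points lie on both sides of 0 after DSS, with Slc34a2 at 0.88 and -1.45.

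The deletion itself could not be read from these libraries. Mir181a-1, Mir181b-1, Mir181a-2 and Mir181b-2 were at 0 counts in all 11 libraries, as were Mir181c and Mir181d, and oligo(dT) capture does not retain such short RNAs. Transcripts over the deleted cluster on chromosome 1 had few counts. Gm4258, whose model (137898595 to 138000384) overlaps that cluster, had 5 and 4 counts in WT and 15, 16 and 23 in DKO, groups that did not overlap (log2 fold change 2.18 ± 0.53, SE; edgeR adjusted p = 1). After DSS it had 6, 2 and 7 counts in WT and 54, 44 and 49 in DKO (3.37; edgeR adjusted p = 0.00119). Mir181a-1hg, the host transcript, had 8 and 4 counts in WT and 19, 16 and 14 in DKO. Nr6a1, the nuclear receptor gene over the cluster on chromosome 2, was at 13.7 and 14.3 CPM in WT and 12.8, 12.3 and 10.6 CPM in DKO (-0.23). Both host-region transcripts of chromosome 1 were thus present in DKO, at counts too low to say which bases were transcribed.

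Genes reported as miR-181 targets did not rise as a group. Of 50 tested, 0 were called by edgeR, 1 had an unadjusted p under 0.05, 4 lay wholly above WT and 6 wholly below, and their median log2 fold change was -0.03 against 0.01 for all genes. The 1 was S1pr1, a sphingosine-1-phosphate receptor, at trace level with 0.263 and 0.149 CPM in WT and 0.619, 0.460 and 0.777 CPM in DKO (1.58 ± 0.52, SE; unadjusted p = 0.0104 by edgeR), and its fold change after DSS was -1.52. Cbx7, a Polycomb protein, was at 33.3 and 34.0 CPM in WT and 30.3, 32.7 and 30.7 CPM in DKO. Its baseline log2 fold change was -0.11 ± 0.19 (SE), whereas after DSS it was 1.54 (edgeR adjusted p = 0.000744). The colonic transcription factor Cdx2 had 0.21 ± 0.29, the kinase Nlk 0.10 ± 0.14 and the survival factor Bcl2 0.00 ± 0.15 at baseline, all with intervals that include 0.

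Seed sites were then counted in 3' UTRs on the transcript strand: the 8mer TGAATGTA, the 7mer-m8 TGAATGT and the 7mer-A1 GAATGTA, with both 7mers inside an 8mer counted once. A site from each of 4 genes is shown (an 8mer where the UTR has one), 2 that passed the test and 2 reported targets that did not, to set the sites beside the values; capitals mark the match.
Nnt: ttcttgctttTGAATGTtccatccatt
Sprr2a2: ctaatggataTGAATGTAaacattaaat
Cbx7: cctgcatattTGAATGTAgaggttgggt
Bcl2: taatcaggacTGAATGTAgataatgggt
A UTR of 100 bases or more was annotated for 14183 tested genes; 3469 of these genes (24.5%) had a site and 879 (6.2%) an 8mer. Nnt, which rose, had 1 site and Sprr2a2, which fell, had 1, while Tmem254, Duxbl1 and Wdfy1 had none in the UTR searched. A match describes these letters only, and the UTR model of Sprr2a2 is uncertain because of its overlap with Sprr2a1.

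Genes with sites were not higher in DKO than genes without. The median log2 fold change was -0.02 for the 3469 genes with a site, -0.02 for those with an 8mer, -0.06 for the 276 genes with 3 or more sites, and 0.03 for the 10714 genes without. UTRs with a site were longer, with a median of 2483 bases against 1044.5, and long UTRs went with lower values whether or not they held a site. In the quartile of longest UTRs the medians were -0.06 with and -0.04 without a site, in the third quartile 0.02 and 0.02, in the second 0.03 and 0.05, and in the shortest 0.06 and 0.08. Among the 50 reported targets, the 38 with a site had a median of -0.02 and the 12 without -0.07.

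Cell type markers were tested next, since a shift in cell composition would change many genes together. In bulk RNA, fewer cells of a type and less RNA per cell cannot be told apart. Of the 47 gene lists examined, 41 held 0 called genes. With 0.026% of all genes called, lists of this size would mostly hold 0 in any case. That count therefore does not bear on composition. Of the 44 lists with at least 5 tested genes, 40 had a median within 0.25 of 0. Of 28 absorptive colonocyte genes 0 were called and the median was 0.14. Krt20, a keratin of differentiated surface cells, was at 581 and 691 CPM in WT and 814, 771 and 788 CPM in DKO (log2 fold change 0.32 ± 0.13, SE; unadjusted p = 0.0289 by edgeR). Of 22 goblet cell genes 0 were called and the median was 0.11. Muc2, the gel-forming mucin, had -0.37 ± 0.22, Clca1, which processes mucus, 0.02 ± 0.18 and Zg16, a lectin of mucus, 0.37 ± 0.23. Deep crypt secretory cells (12 genes, median -0.02), crypt stem cells (20, -0.05, with the stem cell receptor Lgr5 at -0.20 ± 0.31) and enteroendocrine cells (20, 0.03) had no called gene either. Among 17 tuft cell genes (median -0.10), Hpgds, a prostaglandin D synthase, was at 8.85 and 11.1 CPM in WT and 7.34, 6.46 and 7.11 CPM in DKO (-0.51 ± 0.19, SE; unadjusted p = 0.0183 by edgeR).

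**Figure D4:**
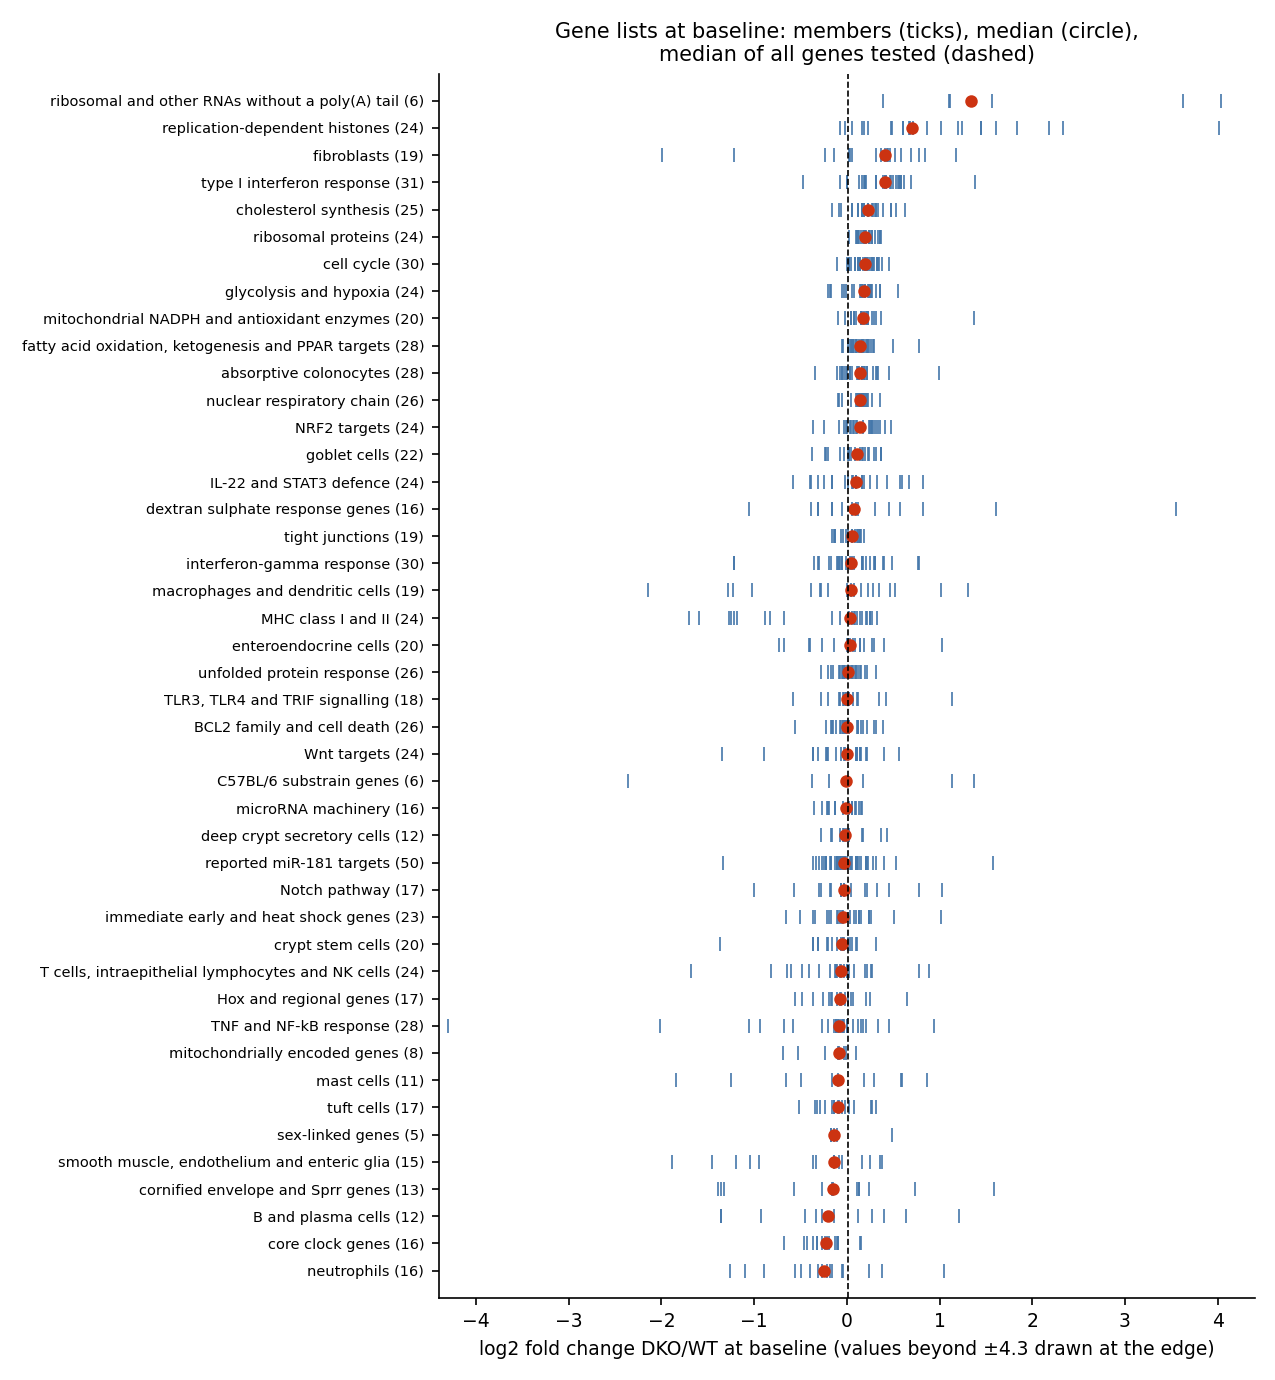
Log2 fold change of DKO relative to WT at baseline for the members of each gene list with 5 or more tested genes (ticks; number in brackets), the median of each list (circle) and the median of all genes tested (dashed line, 0.01). Medians lie between -0.24 (neutrophils) and 1.34 (RNAs without a poly(A) tail), the latter -0.66 without DKO libraries 1 and 2.

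Cell cycle genes lay slightly above WT without passing. Of 30, 0 were called and 0 had an unadjusted p under 0.05, and the median was 0.20. In this list 9 lay wholly above WT and 0 wholly below, where 9.92% and 10.3% of all genes did. The list summed to 1712 and 1807 CPM in WT and 1993, 1859 and 2029 CPM in DKO, groups that did not overlap. Mcm5, a subunit of the replicative helicase, was at 48.7 and 51.2 CPM in WT and 66.9, 62.3 and 76.1 CPM in DKO (log2 fold change 0.45 ± 0.23, SE). Leaving out WT library 1 lowered the median of the list to 0.09 and leaving out WT library 2 raised it to 0.34, so the value depended on which WT library was used.

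Markers of other cell types were present, and none of those listed was at 0 in all 5 libraries. The summed level of 24 T cell, intraepithelial lymphocyte and NK cell genes was 90.8 and 55.6 CPM in WT and 59.7 to 78.6 CPM in DKO (median log2 fold change -0.07). The 19 fibroblast genes summed to 425 and 347 CPM in WT and to 688, 615 and 302 CPM in DKO libraries 1, 2 and 3, with a median of 0.41 that became -0.36 without DKO libraries 1 and 2. Col1a1, a collagen chain, was at 186 and 151 CPM in WT and 296, 270 and 118 CPM in DKO, so the groups overlapped. Vim, an intermediate filament protein of mesenchymal cells and leukocytes, was at 25.9 and 24.5 CPM in WT and 42.2, 55.3 and 38.7 CPM in DKO (0.85 ± 0.17, SE; edgeR adjusted p = 0.578), and the part of fibroblasts in it was not tested. Csf1r, a macrophage receptor, was at 1.64 and 1.13 CPM in WT and 2.97, 3.34 and 2.08 CPM in DKO (1.01 ± 0.35, SE; unadjusted p = 0.014 by edgeR). In the same list Zbtb46, a dendritic cell transcription factor, was at 0.647 and 0.744 CPM in WT and 0.248, 0.363 and 0.272 CPM in DKO (-1.23 ± 0.45, SE; unadjusted p = 0.0188 by edgeR), and the Fc receptor gene Fcgr1, at trace level, had -2.14 ± 0.96 (unadjusted p = 0.0459). Of the 19 macrophage and dendritic cell genes, 3 lay wholly above WT and 4 wholly below; their median was 0.04, and that of the 12 B and plasma cell genes, which summed to 227 to 314 CPM over the 5 libraries, was -0.20.

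The lists of MHC genes and of interferon, TNF and IL-22 responses held 0 called genes by edgeR. Among 24 MHC genes (median 0.04), 4 class II pathway genes had an unadjusted p under 0.05 and were lower in DKO, and WT library 1 was the highest library in each. Cd74, the invariant chain, was at 170 CPM in WT library 1, 31.7 in WT library 2 and 30.9, 37.4 and 32.0 CPM in DKO. H2-Aa, a class II alpha chain, was at 73.2 and 9.95 CPM in WT and at 12.3, 10.9 and 15.2 CPM in DKO. WT library 2 was thus within or below the DKO range of both genes. The 30 genes of the interferon-gamma response had a median of 0.05 and the 31 of the type I interferon response 0.41, with 0 called in either. The type I genes summed to 958 and 1371 CPM in WT and 1932, 1165 and 1291 CPM in DKO, groups that overlapped, and their median was 0.10 without DKO library 1 and 0.09 without WT library 1. TNF and NF-kB response genes (28, median -0.08) and genes of the IL-22 and STAT3 defence (24, 0.10) held 0 called genes.

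**Figure D5:**
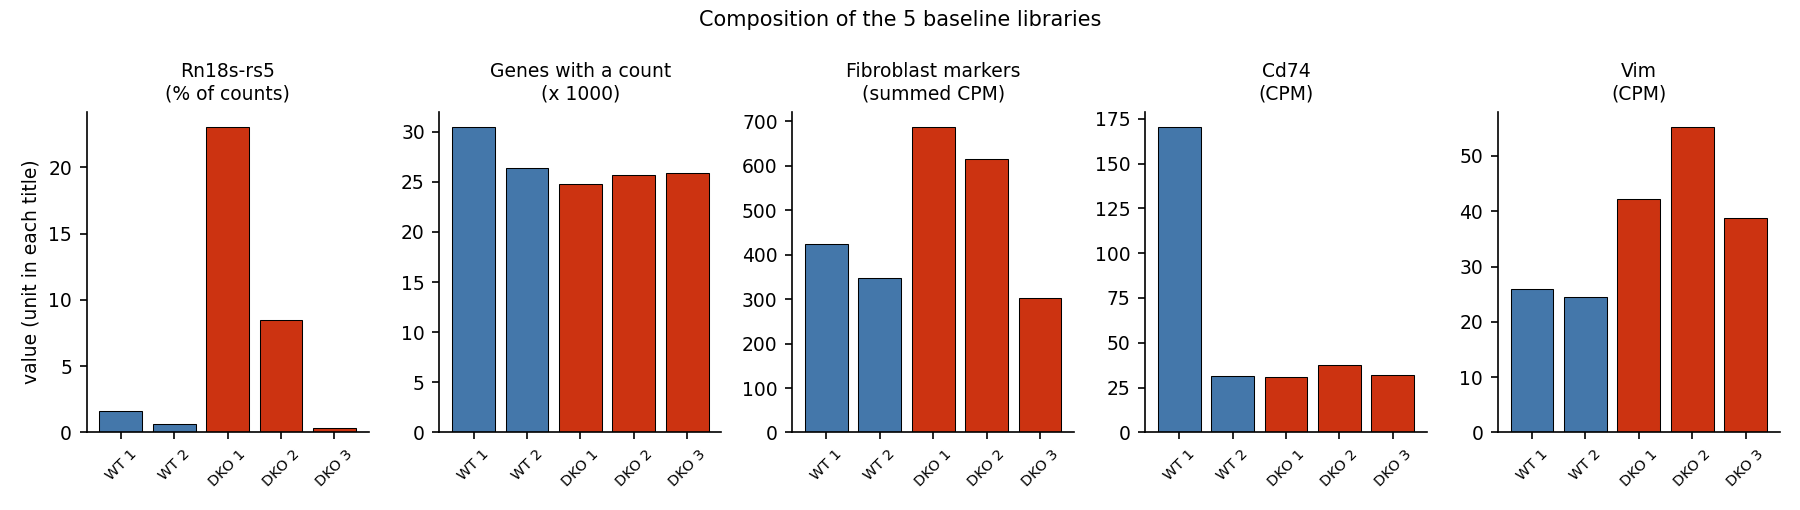
The 5 baseline libraries by Rn18s-rs5 (percent of counts), genes with a count (in units of 1000), summed CPM of fibroblast markers, and CPM of Cd74 and Vim, WT in blue and DKO in red. DKO libraries 1 and 2 are high in ribosomal RNA and fibroblast markers, and WT library 1 stands apart in Cd74 (170 CPM).

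Metabolic genes lay a little above WT in several lists without a called gene. Of 24 NRF2 target genes, 5 had an unadjusted p under 0.05 and all 5 were higher in DKO, where 1.86% of all genes were. They were the pentose phosphate enzymes G6pdx (log2 fold change 0.27 ± 0.13, SE), Pgd (0.31 ± 0.12) and Tkt (0.33 ± 0.13), the glutathione transferase Gstm2 (0.36 ± 0.15) and the aldo-keto reductase Akr1b8 (0.41 ± 0.18). The median of the list was 0.14, and it was -0.06 without WT library 1 and 0.41 without WT library 2. Pgd was at 297 and 330 CPM in WT and 391, 368 and 410 CPM in DKO, groups that did not overlap.

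Of 25 cholesterol synthesis genes (median 0.23), 2 had an unadjusted p under 0.05, both higher, Mvk (mevalonate kinase, 0.53 ± 0.21, SE) and Nsdhl (a sterol dehydrogenase, 0.39 ± 0.17). That median was 0.03 without WT library 1 and 0.49 without WT library 2. Of 24 glycolysis and hypoxia genes (median 0.19), 11 lay wholly above WT and 0 wholly below, where 9.92% and 10.3% of all genes did. In this list 2 were higher with an unadjusted p under 0.05, where 1.86% of all genes were. They were Tpi1 (triosephosphate isomerase, 0.35 ± 0.14, SE) and Ldha (lactate dehydrogenase, 0.32 ± 0.14). Ldha was at 880 and 1022 CPM in WT and 1133, 1078 and 1349 CPM in DKO. Fatty acid oxidation genes (28, median 0.15), subunits of the respiratory chain (26, 0.14) and ribosomal proteins (24, 0.20) were likewise slightly above 0 with 0 called. Glycolysis and hypoxia genes summed to 6642 and 7244 CPM in WT and 7586, 7821 and 8670 CPM in DKO, groups that did not overlap. For fatty acid oxidation, respiratory chain and ribosomal protein sums, WT library 1 was below every DKO library. WT library 2 lay within the DKO range of each. The sums in WT libraries 1 and 2 were 4576 and 5409 CPM for fatty acid oxidation, against 5114 to 5860 in DKO. They were 7927 and 9269 against 8814 to 10569 for the respiratory chain, and 11044 and 13555 against 11786 to 18223 for ribosomal proteins.

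Histone messages, most of which lack a poly(A) tail, were mixed. Of 24 replication-dependent histone genes the median was 0.70, and 4 had an unadjusted p under 0.05, all higher. H3c1 was at 0.0202 and 0.0638 CPM in WT and 1.61, 0.266 and 0.311 CPM in DKO, highest in DKO library 1 and higher in DKO library 3 than in DKO library 2. Without DKO libraries 1 and 2 the median of the list was -0.27. The summed level of the list, which abundant members dominate, was 245 and 292 CPM in WT and 299, 295 and 305 CPM in DKO, highest in DKO library 3, which had the least Rn18s-rs5. The part of ribosomal RNA in these values was not tested.

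Over all genes tested, 46.2% had the same sign of fold change at baseline and after DSS. Of the 1013 genes (5.26%) higher in DKO after DSS, 44.4% were also above 0 at baseline, with a median baseline log2 fold change of -0.04, and of the 1152 lower genes (5.98%) 37.7% were also below 0, with a median of 0.05. Zbtb16, a zinc finger transcription factor with one of the largest increases after DSS, had 0.01 at baseline, the cytochrome P450 Cyp4b1 0.11, the sodium-proton exchanger Slc9a3 -0.00 and the pentraxin Mptx1 -0.04. The epithelial calcium channel Trpv6 had 0.75 and the collagenase Mmp13 1.61, the matrix protein Tnc 0.72 and the methyltransferase-like Mettl7a2 -0.64; none of these 4 passed at baseline.

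The fit bounded most genes of moderate level to a baseline difference under 2-fold, and fewer to a smaller one. Its intervals use a spread estimated from all 11 libraries, those after DSS included. For 10915 of the 19267 genes (56.7%) the 95% confidence interval of the fold change lay within 2-fold in both directions, and between 10 and 100 CPM for 90.3%. It lay within 1.5-fold for 6527 of the 19267 genes, and for 4622 of the 7144 genes between 10 and 100 CPM. The median half-width of the interval was 0.634 on the log2 scale. For genes under 1 CPM it was 1.46, so differences of trace transcripts such as S1pr1 were not resolved at this depth.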

How the data were processed

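The deposited table holds raw read counts per gene for 11 libraries, per its whole-number values, and all columns were matched to samples by name. Per the submitters' processing notes the authors used STAR and the mouse build mm10; not given in the sources used here are the version of STAR, the counter, the annotation and the strand setting, so reads of antisense and near-identical genes cannot be told apart. Per the labels' protocols, the NEBNext Ultra II kit was used after oligo(dT) capture.

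The fit used edgeR 4.0.16 in R 4.3.3: filterByExpr at a minimum count of 10, which kept at least 99.9% of the counts of each library, TMM scaling, and a robust quasi-likelihood fit of 1 mean per group to all 11 libraries (biological coefficient of variation 0.234). The two-sided test was adjusted by Benjamini-Hochberg over all 19267 genes at 0.05. The SE was taken as the absolute log2 fold change over the square root of F. Alternatives used DESeq2 1.42.0 and limma 3.58.1, other filters and scalings, a replicate block and left-out baseline libraries. The code was tested on simulated counts.

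Genes named are those called, the 10 next by p in each direction, the miR-181, Wdfy, Duxbl, Sprr2 and substrain lists, the first 3 tested members of other lists, and neighbours within 500 kb at an unadjusted p under 0.05. Other named list members, and the genes with large changes after DSS, were chosen after their values were seen. Some genes that the rule takes are not reported here. The comparison and the 47 lists were chosen with earlier results of these data known. Positions and UTRs are from GENCODE M21, which matched 50671 of 54513 genes (93.0%) by symbol.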

Additional observations from a re-analysis of the deposited data

Results flagged for a closer look

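The genotype difference after DSS departed from that at baseline for 30 of the 229 tested genes reported on here. The measure was the interaction term of edgeR at an adjusted p under 0.05, which 1.57% of all genes passed. Some of the 229 were chosen for large changes after DSS or for a low p at baseline. The interaction uses those same values, so the share of 30 in 229 is no independent result. None of the 30 was called at baseline and 28 were called after DSS, a count that the choice of genes raises in part. DSS cannot be told apart from sex here, and leaving out 1 baseline library reduced the genes passing this test from 302 to between 2 and 146. Each value is the log2 fold change of DKO relative to WT after DSS minus that at baseline.

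Genes of differentiated epithelium went both ways. The value was -3.35 for Clca1 (mucus processing), -6.14 for Mptx1 (a pentraxin), -2.63 for Reg4 (deep crypt secretory cells), -5.51 for Trpv6 (calcium channel), -2.33 for Slc34a2 (phosphate transport), -3.37 for Slc16a12 (a monocarboxylate transporter) and -4.24 for Fut9 (a fucosyltransferase). It was 2.95 for Slc9a3 (sodium-proton exchange), 2.91 for Cyp4b1 (a cytochrome P450), 3.23 for Me3 (mitochondrial malic enzyme) and 1.26 for Muc3a (a membrane mucin). Of 2 hormone cell genes, Chga (a granin) had 1.65 and Insl5 (a peptide hormone) -1.70.

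Crypt and cell cycle genes had negative values, -1.80 for the stem cell marker Smoc2, -1.16 for the Wnt target Cd44, -1.60 for Mcm5 and -1.04 for Mcm7. Among defence genes, Lcn2 (siderophore binding) had 2.64, the chemokine Cxcl1 2.63 and the neutrophil marker Ly6g 1.86, while the interferon-induced Bst2 had -1.72. The transcription factor Zbtb16 had 4.26. Of the reported miR-181 targets, Cbx7 had 1.65 and S1pr1 -3.10.

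Genes chosen for their low p at baseline, for which the value is not independent of the choice, include Xlr3a (-2.67), Prkab2, a subunit of AMP-activated kinase (1.21), and Mrgbp (0.86), beside Slc34a2 and Muc3a above. The pseudogene Tmem181c-ps had 1.42. The Y-linked genes Ddx3y (-1.88) and Uty (-3.31) were near 0 CPM in the DSS libraries, so their values there rest on few counts.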

How the results depend on the processing

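All 5 genes called at baseline kept their direction under the 16 alternatives. Tmem254 was called in 16, Nnt in 13, Duxbl1 in 11, and Wdfy1 and Sprr2a2 in 9 each. The number of genes called, 5, was 79 without a filter on low counts and 15 by DESeq2 (5 shared with the first 5 in each), and 1 without DKO libraries 1 and 2, which leaves 1 DKO library assumed to vary like the other groups. Leaving out 1 baseline library gave 1 (without WT 1 or WT 2) to 3. Other scalings, a minimum count of 50, limma voom, the baseline libraries alone and a fit without robust estimation gave 4 to 7. Tmem181b-ps was called with the baseline libraries alone (edgeR adjusted p = 0.0174) and by DESeq2 (adjusted p = 1.51e-05), which also called Xlr3a, Dynlt1b, Vim, Eif3f and Cphx1, among others. A replicate block, with numbers paired within treatment, gave 13 at baseline, 4 of them shared, and ended the call of Sprr2a2 (adjusted p = 0.0715); same-numbered baseline libraries deviated with correlations of 0.141 and -0.0705, so they share only a number. After DSS, 2165 genes became 7331 by limma voom with quality weights and 1857 to 2094 with 1 baseline library left out. No DSS library was left out, so how far that count rests on any of them was not tested. The 302 genes of the interaction became 1469 without a filter, 1269 by DESeq2, 2376 by limma voom, 86 without DKO libraries 1 and 2, and 2 to 146 with 1 library left out (2 without WT 1, 18 without WT 2). The causes of these shifts were not tested. Of 3034 values of single genes under alternatives, 2830 were labelled the same and 0 reversed after a call. For a called gene the label meant only that the call was kept. For the others it meant a shift under the SE and no call gained. Ribosomal RNA left DKO library 1 with fewer counts on other genes (TMM factor 0.776), and WT has 2 libraries, which limits the precision.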

Other observations

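Several further regulatory gene groups held 0 genes called by edgeR at baseline. The 16 core clock genes summed to 691 and 662 CPM in WT and 586, 636 and 542 CPM in DKO, groups that did not overlap. Their median log2 fold change was -0.23, 4 lay wholly below WT where 10.3% of all genes did, and 1 had an unadjusted p under 0.05: Tef, a PAR-domain transcription factor with output under clock control, at 37.1 and 35.4 CPM in WT and 29.8, 29.1 and 21.8 CPM in DKO (-0.43 ± 0.20, SE; unadjusted p = 0.0488). The repressor Cry2 had -0.36 ± 0.19. Arntl, which encodes BMAL1, had 0.16 ± 0.14, the highest value of the list, while the activator genes Clock (-0.09 ± 0.12) and Npas2 (-0.10 ± 0.20) were slightly below 0. The labels give no time of collection, and its part in these values was not tested. Unfolded protein response genes (26, median 0.01), Wnt targets (24, -0.00), genes of the Notch pathway (17, -0.03), tight junction genes (19, 0.06) and BCL2 family and cell death genes (26, -0.00) had medians at or near that of all genes, 0.01.

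The 16 genes of the microRNA machinery had a median of -0.01, with 0 called by edgeR. Ago2, the slicing Argonaute, was at 135.6 and 83.6 CPM in WT and 83.4, 98.8 and 75.7 CPM in DKO, groups that overlapped (log2 fold change -0.35 ± 0.25, SE). Among Hox and regional genes (17, median -0.07), Hoxb5 was at 17.1 and 17.6 CPM in WT and 13.1, 12.5 and 11.7 CPM in DKO (-0.48 ± 0.22, SE; unadjusted p = 0.0472 by edgeR), and Cdx1, a caudal homeobox factor of the intestine, was at 148 and 149 CPM in WT and 207, 237 and 252 CPM in DKO (0.65 ± 0.59, SE). The groups did not overlap for either gene.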
